A study of Anas platyrhynchos with 6 samples.

Results

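Aquaporins are membrane channel proteins, and the deposited table of ovarian transcripts names 6 of them by symbol: AQP2, AQP4, AQP5, AQP8, AQP9 and AQP11. They were chosen as every row whose symbol is AQP followed by a number, which gave 6 genes among 17169 transcripts of 16450 genes, each with 1 row. A row without a symbol, whose Entrez identifier the RefSeq gene table gives as AQP1, is described beside them and is not counted among the 6. The ovaries came from 6 ducks (Anas platyrhynchos) of a full-sib family at 71 weeks of age, of which 3 laid many eggs (labelled high egg number, HEN) and the other 3 few (low egg number, LEN). Values of a group are listed in the order of its replicates 1, 2 and 3. The birds of both groups were killed after feed had been withheld, and the ovarian tissue was frozen before RNA extraction. Each duck gave 1 RNA sequencing library, and values are FPKM, that is fragments scaled to transcript length and library size. No label says which part of the ovary was taken or how many follicles it held.

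Water crosses membranes through aquaporins along osmotic gradients, and the family is divided by what else its members pass. The orthodox channels, AQP1, AQP2, AQP4 and AQP5, carry mainly water. The aquaglyceroporin AQP9 also passes glycerol, urea and other small solutes, AQP8 passes ammonia and hydrogen peroxide as well as water, and AQP11 belongs to a divergent branch that sits largely in intracellular membranes. In the mammalian ovary, aquaporins have been studied for the fluid that fills the follicle. A bird's follicle fills with yolk and forms no such fluid-filled cavity.

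The libraries differed in ways that bear on every value below. HEN replicates 2 and 3 stood apart: their correlation across transcripts on the log2(FPKM + 1) scale was 0.965 with each other and 0.634 to 0.779 with the other 4 libraries, whereas HEN replicate 1 and the LEN libraries gave 0.933 to 0.964. The summed level of the 9 oocyte markers found in the table was 12.1 and 10.2 FPKM in HEN replicates 2 and 3, against 502 FPKM in HEN replicate 1 and 545 to 1336 FPKM in LEN. SYCP3, a meiotic gene, made up 8.10 and 5.30 FPKM of those low sums. The granulosa marker FOXL2 was at 33.1 and 55.2 FPKM in these libraries and at 152 to 175 FPKM in the rest. FSHR, the receptor of follicle stimulating hormone, was at 22.2 and 13.6 FPKM, against 18.9 to 25.4 FPKM in the rest. The granulosa markers CYP19A1 and WNT4 were far lower in these libraries. CYP19A1 had 2.61 and 5.69 FPKM, against 40.7 to 70.7 FPKM in the rest. WNT4 had 3.36 and 0.734 FPKM, against 17.5 to 38.1 FPKM. NR5A2 was higher there, with the levels given below, and INHBA, INHBB, FST and KITLG were not below the rest in both. Granulosa marker RNA was thus present in all 6, but its level was not kept for every marker, and markers went both ways. The egg coat gene ZP4 was close to absent from HEN replicates 2 and 3, with levels of 0.0985 and 0.608 FPKM. The difference of each aquaporin tested is therefore given over all libraries, without HEN replicate 1 and without HEN replicates 2 and 3. In bulk tissue, fewer cells of a type and less RNA per cell cannot be told apart. The inferred depth was 18213744 to 19831761 fragments per library.

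The aquaporins covered a wide range of levels, and AQP1 made up most of the FPKM summed over the 7 that were named. A further 5358 transcripts had no gene name, so any aquaporin among them is missing from these sums. AQP1 was at 225, 364 and 287 FPKM in the HEN ovaries, against 138, 224 and 104 FPKM in the LEN ovaries. Its mean over the 6 libraries exceeded that of 98.8% of all transcripts, and it made up 71.3% to 98.3% of the FPKM summed over the 7 aquaporins in a library. AQP4 came next, at a mean of 14.3 FPKM, above that of 60.3% of transcripts. AQP11 had a mean of 3.35 FPKM, AQP8 of 2.38 FPKM, AQP9 of 2.20 FPKM, AQP5 of 0.617 FPKM and AQP2 of 0.115 FPKM. AQP1 was above AQP4 in 6 of 6 libraries, and AQP11 was above AQP8 in 5 of 6. The other neighbours in this order did not keep their places: AQP4 was above AQP11 in 4 of 6 libraries, AQP8 above AQP9 in 3 of 6, AQP9 above AQP5 in 3 of 6, and AQP5 above AQP2 in 4 of 6.

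**Figure D1:**
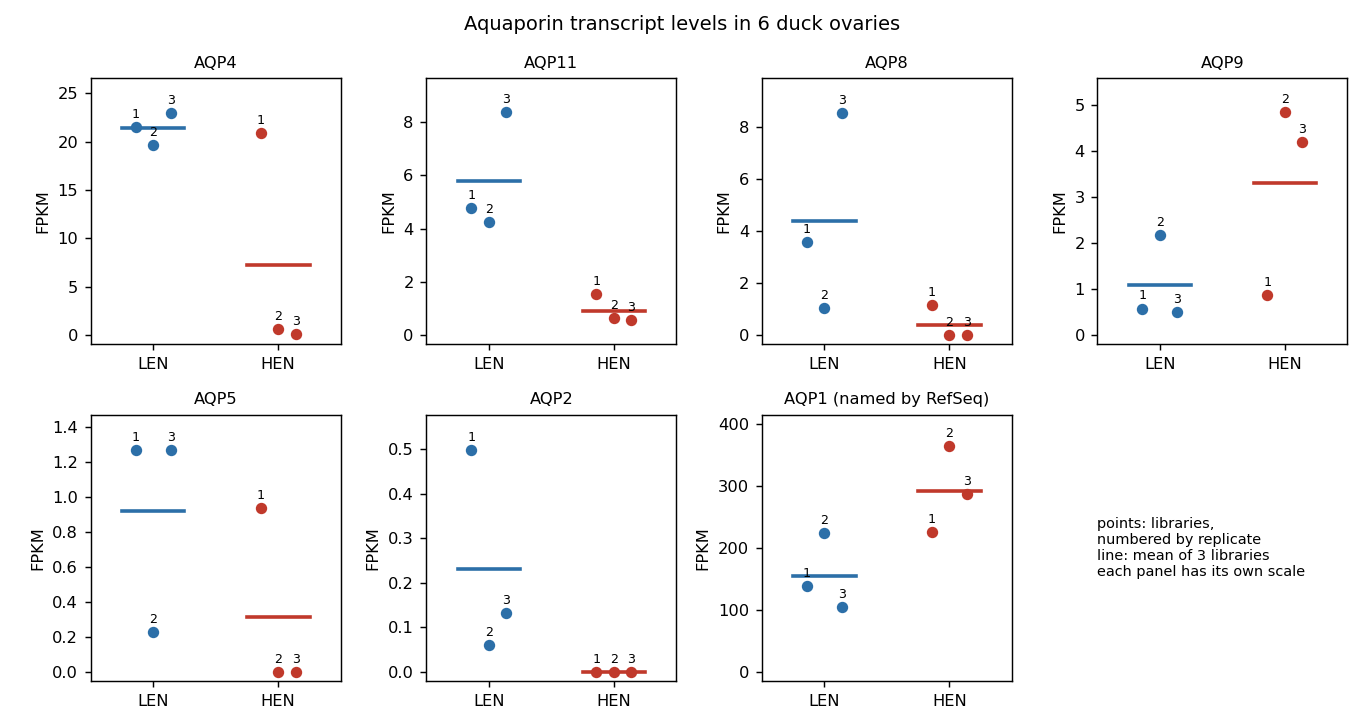
FPKM of the 6 aquaporins and of AQP1 in each ovary, with LEN in blue and HEN in red; points are libraries numbered by replicate, lines are means of 3, and each panel has its own scale starting near 0. All 3 HEN points of AQP11 lie below its LEN points, whereas AQP4 in HEN replicate 1, at 20.9 FPKM, lies among the LEN values.

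The make-up of the aquaporin transcripts other than AQP1 differed between libraries. In the LEN ovaries the 6 genes summed to 32.3, 27.4 and 41.8 FPKM, and AQP4 supplied 66.9%, 71.8% and 55.0% of it. HEN replicate 1 had a sum of 25.4 FPKM, of which AQP4 supplied 82.4%. In HEN replicates 2 and 3 the sums were 6.11 and 4.91 FPKM, and the leading gene was AQP9, with 79.5% and 85.5%. The water channel AQP4 thus led in 4 libraries and the aquaglyceroporin AQP9 in 2. All 3 HEN sums were below the LEN sums, but HEN replicate 1, at 25.4 FPKM, was close to LEN replicate 2, at 27.4 FPKM. AQP4 alone overlapped between the groups. Among single transcripts with a mean of 1 FPKM or more, 13.4% had HEN below LEN without overlap.

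**Figure D2:**
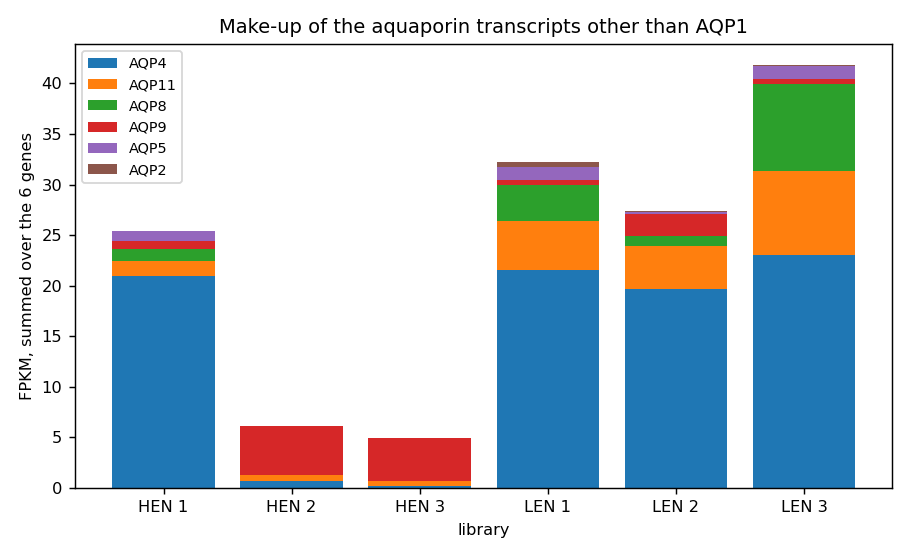
FPKM of AQP4, AQP11, AQP8, AQP9, AQP5 and AQP2 stacked for each library, with AQP1 left out. AQP4 fills most of the bar in HEN replicate 1 and in the LEN libraries, and AQP9 fills most of the much shorter bars of HEN replicates 2 and 3, which reach 6.11 and 4.91 FPKM.

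The comparison asks which transcripts differ between ovaries of ducks with many and with few eggs. It was made with limma on log2(FPKM + 1) over the 13328 transcripts whose mean was 1 FPKM or more, a scale that understates the change of low genes. No transcript passed: 0 of 13328 (0%) had a Benjamini-Hochberg adjusted p under 0.05 (smallest value 0.11). By the unadjusted p at the same threshold, 5.10% of transcripts were higher and 16.9% lower in HEN. That balance depends on the scaling: 680 were higher and 2249 lower in the values as deposited, against 1169 and 1755 after upper quartile scaling, 1192 and 1773 after scaling by trimmed means and 1390 and 1538 after quantile normalization. Of the 6 aquaporins, 4 passed the filter on low values (AQP4, AQP8, AQP9 and AQP11), and none of the 4 had an adjusted p under 0.05. AQP8 and AQP11 passed the filter through their LEN levels, since their HEN means were 0.38 and 0.909 FPKM. The median difference of the 4 was -1.80, against -0.24 over all transcripts tested, which describes the genes left after that filter and not the family.

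AQP4 is the water channel of astrocytes in the mammalian brain and is also found in some epithelia and in skeletal muscle. AQP4 (ENSAPLG00000004032, scaffold KB742424.1 from 1198476 to 1204414, minus strand) was at 20.9, 0.623 and 0.135 FPKM in the HEN ovaries. The LEN ovaries held 21.6, 19.6 and 23.0 FPKM. HEN replicate 1 therefore lay within the LEN range, and the other HEN ovaries lay far below it. HEN replicates 2 and 3 were at 2.91% and 0.631% of the LEN mean of 21.4 ± 1.68 FPKM (SD, n = 3), and HEN replicate 1 was at 97.8% of it. The steps between values correspond to 646, 19 and 4 fragments in HEN and 674, 633 and 685 in LEN, so that the low values rest on few fragments. Their 95% Poisson intervals end at 0.973 and 0.346 FPKM. The fitted difference was -2.70 ± 1.05 (SE), with an adjusted p of 0.226 and an unadjusted p of 0.0365 in limma. Without HEN replicate 1 it was -4.04 ± 0.27 (adjusted p = 2.14e-05 in limma), and without HEN replicates 2 and 3 it was -0.03 ± 0.29. In LEN the spread of AQP4 was small, and only the HEN group was split.

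AQP11 differed from AQP4 in that its HEN levels were all below its LEN levels. AQP11 (ENSAPLG00000006765, scaffold KB743562.1 from 333844 to 340349, minus strand) is known in mice for its role in the endoplasmic reticulum of kidney cells, where its loss leads to cysts. Its levels were 1.52, 0.63 and 0.576 FPKM in the HEN ovaries, against 4.78, 4.24 and 8.38 FPKM in the LEN ovaries. The inferred fragments were 22, 9 and 8 in HEN and 70, 64 and 117 in LEN. In HEN replicate 1 the 95% Poisson interval reached 2.30 FPKM, and in LEN replicate 2, the lowest of LEN, it began at 3.26 FPKM, so that the gap was wider than counting error. HEN replicate 1 was at 26.2% of the LEN mean and HEN replicates 2 and 3 at 10.9% and 9.94%. The fitted difference was -1.82 ± 0.36 (SE), with an unadjusted p of 0.00158 and an adjusted p of 0.226 in limma. It was -2.04 ± 0.34 without HEN replicate 1 (adjusted p = 0.00159 in limma) and -1.38 ± 0.45 without HEN replicates 2 and 3 (adjusted p = 1.0 in limma). HEN lay below LEN without overlap for 1781 transcripts, or 13.4% of those tested. AQP11 was already known from earlier results of these data as one of the genes lowest in HEN by p, which is why its values are a description here.

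AQP8, known in mammals from liver, colon and testis, was listed at 0 in HEN replicates 2 and 3. AQP8 (ENSAPLG00000003681, scaffold KB745992.1 from 5185 to 10526, plus strand) was at 1.14, 0 and 0 FPKM in HEN and at 3.57, 1.03 and 8.54 FPKM in LEN. HEN replicate 1 lay within the LEN range, just above LEN replicate 2, with 17 and 16 inferred fragments. The LEN libraries themselves differed widely, with 54, 16 and 123 fragments. With the floor of 3 fragments that a count of 0 allows, a one-sided limit of 0.203 and 0.21 FPKM in HEN replicates 2 and 3, AQP8 was at least 21.5-fold and 20.9-fold lower there than the LEN mean of 4.38 ± 3.82 FPKM (SD, n = 3). The exact two-sided intervals reach slightly further, to 0.25 and 0.258 FPKM. The fitted difference was -1.79 ± 0.62 (SE; unadjusted p = 0.0241, adjusted p = 0.226 in limma), -2.16 ± 0.58 without HEN replicate 1 (adjusted p = 0.0148 in limma) and -1.06 ± 0.77 without HEN replicates 2 and 3. Its value depends on the pseudocount, at -3.83 with 0.1 and -6.03 with 0.01, because of the libraries at 0.

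AQP9 had the opposite direction. In mammals this channel carries glycerol into liver cells and is present in leukocytes such as neutrophils. AQP9 (ENSAPLG00000010168, scaffold KB742572.1 from 1073678 to 1098939, plus strand) was at 0.873, 4.86 and 4.20 FPKM in HEN and at 0.575, 2.18 and 0.502 FPKM in LEN. HEN replicates 2 and 3 were the highest of the 6 libraries, and HEN replicate 1 lay below LEN replicate 2, so the groups overlapped. With 99 and 83 inferred fragments in HEN replicates 2 and 3, the intervals began at 3.95 and 3.34 FPKM, above the upper bound of 2.90 FPKM in LEN replicate 2. The fitted difference was 0.97 ± 0.55 (SE; unadjusted p = 0.118, adjusted p = 0.283 in limma). It was 1.49 ± 0.39 without HEN replicate 1 (adjusted p = 0.0138 in limma), and its sign was reversed without HEN replicates 2 and 3, at -0.07 ± 0.56.

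**Figure D3:**
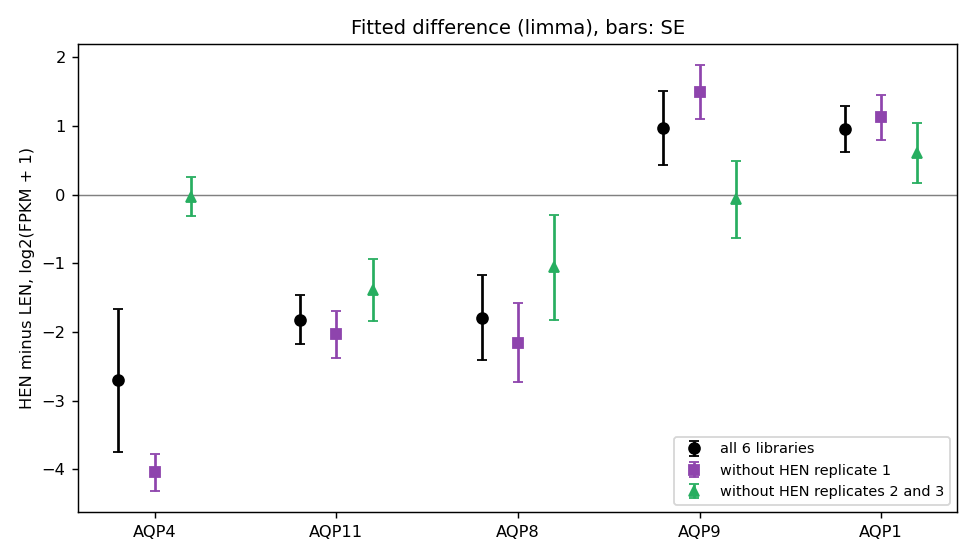
Fitted HEN minus LEN differences on the log2(FPKM + 1) scale for the 4 aquaporins tested and for AQP1; markers show all 6 libraries, the fit without HEN replicate 1 and the fit without HEN replicates 2 and 3, and bars are SE, which in the last fit rests on the spread of LEN because 1 HEN library remains. AQP4 and AQP9 lie near 0 in the last fit, at -0.03 and -0.07, and AQP11 stays at -1.38.

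The remaining genes, AQP5 and AQP2, were close to the limit of detection, and both were below the filter. AQP5 is the water channel of secretory glands in mammals, and AQP2 is the channel that vasopressin moves to the surface of kidney collecting duct cells. Both lie on scaffold KB746064.1, on the minus strand: AQP5 (ENSAPLG00000015507) runs from 110200 to 114084 and AQP2 (ENSAPLG00000015514) from 120729 to 124120, with 6644 bases and no annotated gene between them. AQP5 was at 0.936, 0 and 0 FPKM in HEN and at 1.27, 0.224 and 1.27 FPKM in LEN, from 16, 0 and 0 and from 22, 4 and 21 inferred fragments. As with AQP8, HEN replicate 1 lay within the LEN range, and the libraries at 0 were HEN replicates 2 and 3, where up to 0.178 and 0.183 FPKM is allowed. AQP2 was at 0 FPKM in all 3 HEN libraries and at 0.499, 0.0605 and 0.131 FPKM in LEN, from 8, 1 and 2 fragments. The floor of 3 fragments allows 0.189 to 0.197 FPKM of AQP2 in HEN (0.233 to 0.243 FPKM by the two-sided interval), which is above LEN replicates 2 and 3, so that a difference in AQP2 was not detectable at this depth in those libraries. In a limma fit with no filter, the difference was -0.57 ± 0.36 (SE) for AQP5 and -0.28 ± 0.15 for AQP2, with adjusted p of 0.353 and 0.287.

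**Figure D4:**
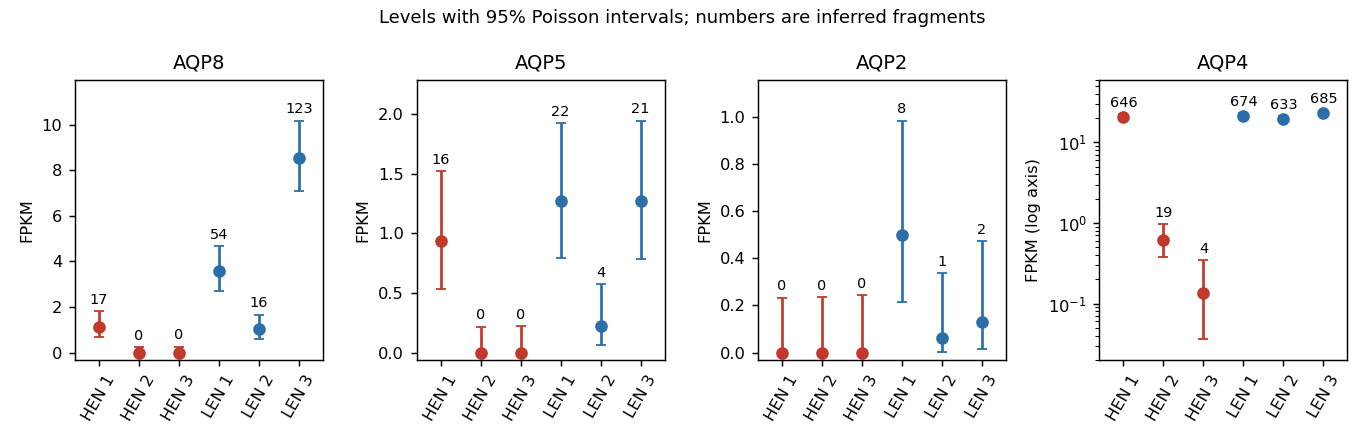
FPKM of AQP8, AQP5, AQP2 and AQP4 in each library with exact 95% Poisson intervals, two-sided and covering counting error only; the printed numbers are the inferred fragments, and the AQP4 axis is logarithmic. AQP8 and AQP5 have 0 fragments in HEN replicates 2 and 3, AQP2 has 0 in all 3 HEN libraries and at most 8 in LEN, and AQP4 has 19 and 4 in HEN replicates 2 and 3.

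AQP1, the water channel of red cells and of capillary endothelium in mammals, was higher in HEN on average. AQP1 (ENSAPLG00000011792, scaffold KB742599.1 from 514518 to 533018, plus strand) lies inside the annotated span of GHRHR, whose own row held at most 0.577 FPKM. The mean of AQP1 over the HEN ovaries was 292 ± 69.6 FPKM (SD, n = 3), and over the LEN ovaries it was 155 ± 62.0 FPKM (SD, n = 3). HEN lay above LEN without overlap, as for 6.92% of the transcripts tested, but by little: HEN replicate 1 was at 224.8 FPKM and LEN replicate 2 at 223.98 FPKM, and their Poisson intervals (219.6 to 230.1 FPKM and 218.9 to 229.1 FPKM) overlap almost fully. The fitted difference was 0.95 ± 0.34 (SE; unadjusted p = 0.0255, adjusted p = 0.226 in limma), with 1.13 ± 0.32 without HEN replicate 1 (adjusted p = 0.0199 in limma) and 0.61 ± 0.43 without HEN replicates 2 and 3.

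Without HEN replicate 1, all 4 aquaporins tested passed in limma, AQP4, AQP8 and AQP11 as lower and AQP9 as higher. In that setting 37.0% of all transcripts passed as lower and 11.8% as higher, so that a call there was common. The remaining HEN libraries in it are the 2 that stood apart.

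Several marker lists moved with the aquaporins between libraries, and their part in these differences was not tested. AQP4, AQP11, AQP8 and AQP5 were lowest in the libraries where the oocyte markers were lowest, HEN replicates 2 and 3. Of those 9 oocyte markers, 2 (DDX4 and DAZL) were listed at 0 in HEN replicate 2 and none in the other libraries. The 9 epithelial markers summed to 73.2 and 59.1 FPKM in HEN replicates 2 and 3 and to 224 to 257 FPKM elsewhere, with EPCAM, an epithelial adhesion protein, at 3.07 and 2.96 FPKM there and at 97.2 to 116 FPKM elsewhere. KRT19, a keratin of the same list, did not follow, at 39.7 and 33.5 FPKM there and 29.0 to 50.1 FPKM elsewhere. CLDN4 was listed at 0 in all 6 libraries. The 9 granulosa markers summed to 107 and 129 FPKM in HEN replicates 2 and 3 and to 267 to 322 FPKM elsewhere, although its members went both ways. The orphan nuclear receptor gene NR5A2 was higher there, at 6.24 and 4.81 FPKM against 1.09 to 2.35 FPKM. FOXL2, CYP19A1 and WNT4 were lower there, with the levels given above.

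AQP9 and AQP1 stood beside other lists. The 10 leukocyte markers summed to 207, 493 and 674 FPKM in the HEN ovaries and to 128, 205 and 121 FPKM in LEN, and none was at 0. CD3E and CD4 of this list did not follow the sum. CD3E was at 2.60, 6.78 and 6.03 FPKM in HEN and at 4.04, 13.7 and 9.70 FPKM in LEN. CD4 was at 0.616, 1.96 and 2.39 FPKM in HEN and at 2.26, 2.70 and 1.55 FPKM in LEN. LEN replicate 2, which had the highest AQP9 of the LEN group, also had the highest leukocyte sum of that group. The match was not close, since HEN replicate 1 had a like leukocyte sum with less AQP9, and the sum was highest in HEN replicate 3 but AQP9 in HEN replicate 2. The 10 endothelial markers summed to 168, 360 and 352 FPKM in HEN and to 118, 223 and 114 FPKM in LEN, with none at 0. AQP1 was highest in HEN replicate 2 and lowest in LEN replicate 3, as were the endothelial sum and the sum of the 5 smooth muscle markers. For the endothelial sum both places were held by little, and its members did not all follow. KDR, TIE1 and ERG followed at both ends. VWF and CDH5 were highest in HEN replicate 3, at 111 and 45.2 FPKM. SOX18 was highest in HEN replicate 1, at 16.9 FPKM, and CLDN5 in LEN replicate 2, at 45.5 FPKM. In HEN replicate 2 most of that smooth muscle sum was ACTA2, at 866 FPKM, and LMOD1 was also highest there, at 45.2 FPKM. Other members did not follow. SYNPO2 was at 14.5 FPKM in HEN replicate 2 and at 21.5 to 37.9 FPKM elsewhere. MYH11 was at 35.6 FPKM in HEN replicate 2, near its lowest value of 34.0 FPKM in LEN replicate 3, and at 84.7 to 136 FPKM elsewhere. The erythrocyte list rested on 4 genes, of which HBZ was at 0 in 5 libraries. Its sum was 520 FPKM in HEN replicate 3 and 40.8 to 105 FPKM elsewhere, and AQP1 was not highest in HEN replicate 3. The 5 adipocyte markers summed to 118 to 177 FPKM, a narrow range that hid opposite changes of FABP4 and CIDEA. FABP4 reached 117 FPKM (HEN replicate 2) and 112 FPKM (HEN replicate 3), whereas the remaining libraries held 21.6 to 52.9 FPKM. CIDEA was lowest in these libraries, with 4.54 FPKM (HEN replicate 2) and 3.76 FPKM (HEN replicate 3), and the remaining ones held 29.5 to 64.9 FPKM. The theca and stroma (9) and smooth muscle (5) sums were 664 to 1780 and 367 to 1043 FPKM. Within the theca and stroma list, members went both ways. The steroid synthesis genes were low in HEN replicates 2 and 3, as AQP4 was. CYP17A1 was at 0.0945 and 0.146 FPKM there and at 33.5 to 521 FPKM elsewhere. STAR was at 3.16 and 7.92 FPKM there and at 17.9 to 253 FPKM elsewhere. By contrast, LUM was at 106 and 66.5 FPKM there and at 14.2 to 24.4 FPKM elsewhere. COL3A1 was at 464 and 586 FPKM there and at 59.2 to 424 FPKM elsewhere.

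**Figure D5:**
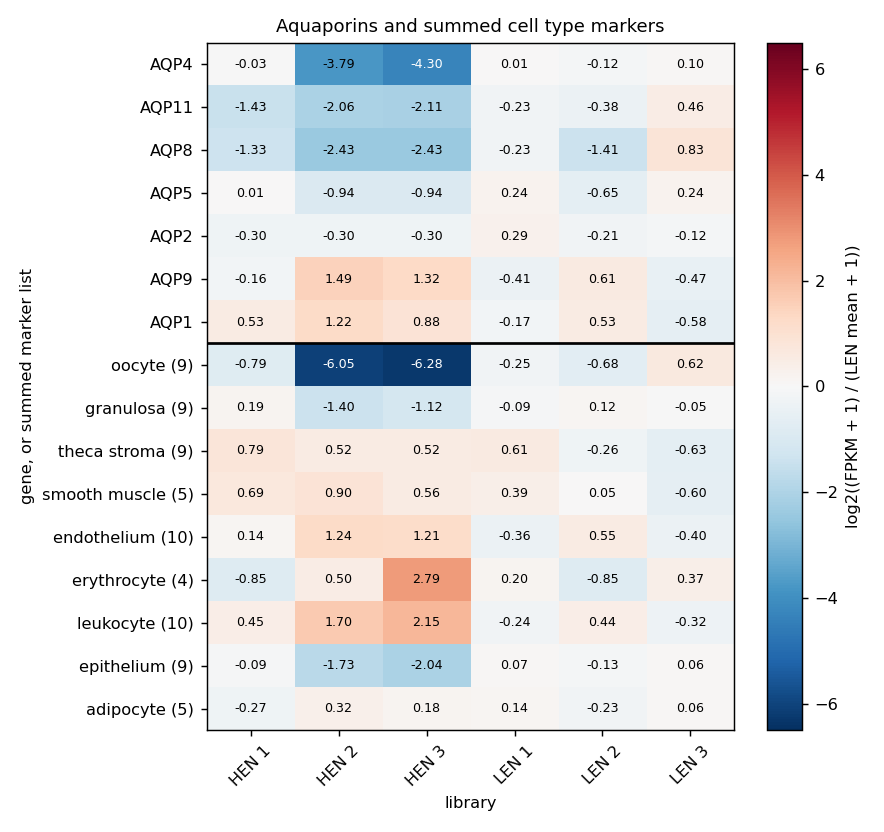
Level of each aquaporin and of each summed marker list (number of genes in brackets) in every library, as log2 of FPKM + 1 over the LEN mean + 1; red is above and blue below the LEN mean, and the black line parts genes from lists. AQP4 is at -3.79 and -4.30 in HEN replicates 2 and 3, where the oocyte list is at -6.05 and -6.28, and AQP9 is at 1.49 and 1.32 there.

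The transcripts most like AQP4 and AQP11 in level across the 6 libraries were sought by Pearson's r on the log2(FPKM + 1) scale. Nearest to AQP4 were FZD9, a WNT receptor, the adhesion protein NECTIN3 and TPD52L1, each at r of 0.999. With the same 2 libraries apart from the rest, r was over 0.9 with AQP4 for 4023 of the 13328 transcripts tested, so that a high r was common. How many transcripts came as close as 0.999 was not counted. FZD9 was at 28.2, 6.56 and 5.96 FPKM in the HEN ovaries and at 26.1 to 29.1 FPKM in LEN. Near to AQP11 were FNDC9 (r = 0.994) and the homeobox gene DLX6 (r = 0.992), with 1165 transcripts at r over 0.9. DLX6 was at 1.30, 0 and 0 FPKM in HEN and at 4.07, 4.74 and 9.03 FPKM in LEN.

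Receptors of the avian neurohypophyseal hormones vasotocin and mesotocin, which in birds act on kidney and oviduct, were set beside the aquaporins. AVPR1B, a receptor known from the pituitary, was at 0.911, 0 and 0 FPKM in HEN and at 4.05, 2.74 and 3.43 FPKM in LEN. For AVPR1B, HEN thus lay below LEN throughout, as for 13.4% of the transcripts tested. Its difference was -1.82 ± 0.37 (SE; unadjusted p = 0.00179, adjusted p = 0.226 in limma), and -1.19 without HEN replicates 2 and 3. Like AQP8, it passed the filter on low values through its LEN levels, since its HEN mean was 0.304 FPKM. OXTR, the oxytocin receptor gene, was at 4.99, 1.28 and 1.90 FPKM in HEN and at 4.79, 5.01 and 6.92 FPKM in LEN, with HEN replicate 1 inside the LEN range and a difference of -0.93 ± 0.42, or -0.12 without HEN replicates 2 and 3. AVPR1A reached at most 0.585 FPKM and the hormone gene OXT at most 0.71 FPKM, and neither passed the filter. Of the 6 genes on this list, 4 were found and 2 tested. Without HEN replicate 1, both had an adjusted p under 0.05 in limma as lower, where 37.0% of all transcripts did so.

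Taken as 1 list, the genes by which vasopressin acts on AQP2 in the mammalian kidney showed no shared direction. The list mixed signalling and transcription genes with genes of vesicle transport, and these parts were not counted separately. Of 34 listed genes, 25 were tested, 12 with a higher and 13 with a lower mean in HEN, at a median of -0.02 beside -0.24 for all transcripts. None had an adjusted p under 0.05 in limma, and 2 higher and 3 lower had an unadjusted p under 0.05, beside 5.10% and 16.9% of all transcripts. The members with the widest differences were subunits of the dynein motor: DYNLL2 at -2.20 ± 0.78, DYNLL1 at -1.18 ± 0.49 and DYNC1LI1 at -1.04 ± 0.44 (SE). Without HEN replicates 2 and 3 these were -0.28, -0.19 and 0.03, and the list's median was 0.04. DYNLL2 was at 135, 20.6 and 14.9 FPKM in the HEN ovaries and at 135 to 227 FPKM in LEN, again with HEN replicate 1 near LEN. With HEN replicate 1 left out, limma called 3 of the 25 higher and 9 lower, shares close to the 11.8% and 37.0% of all transcripts.

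Glycerol is a solute that AQP9 carries, and the genes that make, release or use it were split as well, with 6 higher and 6 lower means among 12 tested of 15 listed and a median of -0.13. None had an adjusted p under 0.05 in limma, and 2 in each direction had an unadjusted p under 0.05 (5.10% and 16.9% of all transcripts, higher and lower). MGLL, which releases glycerol from monoacylglycerol, was at 24.3, 30.0 and 72.7 FPKM in HEN and at 24.2, 13.0 and 9.24 FPKM in LEN, which gave a difference of 1.33 ± 0.50 (SE). HEN replicate 1 and LEN replicate 1 were nearly level for MGLL, although HEN lay above LEN throughout, as for 6.92% of the transcripts tested. ABHD5, an activator of lipolysis, differed by 1.26 ± 0.59, with HEN replicate 1 at 6.23 FPKM inside the LEN range. GPD1, the cytosolic glycerol phosphate dehydrogenase, differed by -1.22 ± 0.72, and 1 library, LEN replicate 1 at 9.16 FPKM, stood above all others, which were at 0.129 to 0.993 FPKM. GPD1 passed the filter on low values only through that LEN library, with a HEN mean of 0.378 FPKM. When HEN replicate 1 was left out, limma called 4 of the 12 in each direction, where it called 11.8% of all transcripts as higher and 37.0% as lower. Without HEN replicates 2 and 3 the differences of MGLL, ABHD5 and GPD1 were 0.72, -0.04 and -0.84, and the list's median was -0.20.

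Cell volume and osmotic response genes numbered 17 tested of 25 listed, with 8 higher and 9 lower means and a median of -0.14. None had an adjusted p under 0.05 in limma, and 6, all lower, had an unadjusted p under 0.05, where 16.9% of all transcripts did so as lower and 5.10% as higher. SLC6A6, the taurine transporter by which cells take up an organic osmolyte, was at 17.5, 134 and 210 FPKM in HEN and at 18.4, 32.1 and 12.2 FPKM in LEN, which gave a difference of 1.99 ± 0.89 (SE) that was -0.14 without HEN replicates 2 and 3. WNK2, a kinase of the family that regulates chloride cotransport, was at 3.87, 0.332 and 0.547 FPKM in HEN and at 5.49, 4.10 and 5.29 FPKM in LEN, which gave a difference of -1.46 ± 0.52, or -0.28 without HEN replicates 2 and 3. The osmosensitive cation channel TRPV4 differed by -1.18 ± 0.46, or -0.84 without these libraries, and it passed the filter through LEN, with means of 0.663 FPKM in HEN and 3.09 FPKM in LEN. With HEN replicate 1 left out, limma called 3 of the 17 higher and 8 lower, beside 11.8% and 37.0% of all transcripts. The median of the 17 was -0.14 also when HEN replicates 2 and 3 were left out. Of the sodium potassium pump genes, 4 of 9 were tested, and none had an unadjusted p under 0.05. The beta subunits ATP1B3 and ATP1B4 differed by 0.70 ± 0.35 and 0.62 ± 0.36 (SE), or by -0.04 and 0.95 without HEN replicates 2 and 3.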

How the data were processed

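The authors deposited 1 table, whose name gives the unit as FPKM. It lists Ensembl duck transcripts in 17191 rows; 22 repeated rows were dropped, leaving 17169. RNA was extracted with TRIzol and made into Illumina libraries, per the labels' protocols; the aligner, counter, strandedness and genome build are not given in the sources used here, so coordinates are those of the table and fragments of overlapping genes cannot be told apart. The RefSeq gene table (IASCAAS_PekinDuck_T2T) gave names only, for 710 transcripts without a symbol.

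Depth was inferred from 303 short noncoding genes, where each of the 968 values below 200 fragments came out whole within 0.02. For each aquaporin the smallest whole fragments were then taken that fitted all 6 libraries within 0.02; any common multiple would fit as well. Poisson intervals (95%, exact) and the floor of 3 fragments cover counting error only.

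The comparison of HEN with LEN used limma 3.58.1 (R 4.3.3) on log2(FPKM + 1), with a trend and group as the only term, and kept transcripts whose mean was 1 FPKM or more (Benjamini-Hochberg adjustment over 13328, threshold 0.05). The step was tested on simulated data, in which both groups were given the spread of the LEN libraries. Those data lacked the split among the HEN libraries, so the test does not cover it. The members and lists were chosen with earlier results of these data known. Named were all members, the 3 closest profiles of AQP4 (highest mean) and AQP11 (smallest p), the 3 widest differences of each list and all hormone receptor genes; GHRHR and the markers were named after their values were seen. Some of the genes so chosen are not reported here. AQP1 was added after the data were seen. The ducks are separate animals, and no label gives a batch.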

Additional observations from a re-analysis of the deposited data

How the results depend on the processing

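No aquaporin passed in any setting other than arrayWeights and the omission of HEN replicate 1, where 4 of the 4 tested passed. With arrayWeights, which gave HEN replicate 1 a weight of 0.114, 7922 of the 13328 transcripts tested were called. Of these, 2194 were higher and 5728 lower, so that a call there was common. Transcripts called, 0 over all libraries, were 1 with a pseudocount of 0.1 and 1 when scaled to TPM. Leaving out 1 library at a time gave 0 to 6501 transcripts and 0 to 4 aquaporins, all from the omission of HEN replicate 1, and a median aquaporin difference of -2.17 to -1.40. That median, -1.80 over all libraries, was -3.21 and -3.42 with pseudocounts of 0.1 and 0.01, -1.18 with no filter, where AQP2 and AQP5 enter, -2.70 with a filter at 5 FPKM, where AQP4 alone is left, -2.33 when scaled to TPM and -0.56 without HEN replicates 2 and 3. The difference of AQP9 reversed to -0.066 in that last setting; no other aquaporin tested, AQP1 included, changed direction in any setting. The median of all transcripts, -0.24 as deposited, was 0.01, 0.00 and 0.07 after upper quartile, trimmed mean and quantile scaling, under which AQP11 differed by -1.65, -1.66 and -1.29 and AQP1 by 1.24, 1.22 and 0.89. With the replicate number as a block (replicate block), 0 transcripts and 0 aquaporins were called and the median was -1.80. Deviations of same-numbered libraries from their group means correlated at 0.0168, 0.382 and -0.423. With 3 libraries a group, these values cannot decide whether the numbers pair the ducks. Values under 3 fragments, as for AQP2 in LEN replicates 2 and 3, are at the limit of depth.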
